A study of Bos taurus with 29 samples.

Results

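The histone genes are the genes of the core histones H2A, H2B, H3 and H4 and of the linker histone H1, taken from the deposited expression table by symbol: every row whose name begins as a gene of these families, with MACROH2A1. There were 56 such rows among 13502. By symbol, 45 rows were placed as replication-dependent histones and 11 as variant histones. Of the symbols, 55 were found in RefSeq for the cattle assembly ARS-UCD2.0, 54 as current symbols and 1 as an older one. The transcripts were measured in single wild-type cattle oocytes in 3 groups. Germinal vesicle (GV) oocytes, arrested before meiosis resumes, were denuded when their complexes were collected from the follicles of FSH-treated donors. IVM oocytes had reached metaphase II, judged by the polar body, after 22 h of conventional in vitro maturation with EGF and FSH. CNP_IVM oocytes came through a pre-maturation culture of 6 h without EGF, in which 200 nM of C-type natriuretic peptide (CNP) was present, a peptide that maintains meiotic arrest, and then through the same 22 h of maturation, so CNP and the longer culture of 28 h cannot be told apart. There were 7 oocytes of the GV group, 8 of the IVM group and 7 of the CNP_IVM group.

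Replication-dependent histone genes lie in clusters and supply nucleosomes during DNA synthesis. In dividing cells their messengers end in a stem-loop bound by the protein SLBP in place of a poly(A) tail. Variant histone genes lie apart, are transcribed outside S phase as well and give polyadenylated messengers. The oocyte stores histones of both kinds for the embryo, and carries a linker histone of its own, H1-8. The libraries were primed on poly(A), so a level here is a share of the polyadenylated reads of an oocyte, scaled to a common library size (CPM), and the amount of a messenger cannot be told apart from its tail. Values of different genes were not adjusted for transcript length and are compared between groups only.

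The 56 rows held 33 different sets of values, because 28 rows were identical in every library to another row. Such sets were H4C2 with 11 other H4 rows, H2BC7 with 6 other H2B rows, H3C12 with H3C10, H3C6 and H3C8, H2AC16 with H2AC14 and H2AC10, and H3C13 with H3C14. The last 3 of these sets also shared their values with rows that carry no histone symbol. Each set was counted once below under its first row, which leaves 22 replication-dependent and 11 variant sets, and the value of a set cannot be assigned to any single gene in it. Outside these sets, histone genes remain near-identical copies whose reads may be shared, so single values are uncertain. H2BC12 also overlaps the pseudogene H4C9 in RefSeq. In that assembly 37 of the rows form 1 run of neighbouring genes, 6 rows (H2AC21, H2BC18, H2BC19, H2BC20, H3C13 and H3C14) form another, and the other rows that matched stand alone.

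Library totals were 20159662 to 39340040 reads, so 3 reads amount to 0.0763 to 0.149 CPM. No label names a donor or culture, so each group counted as 1 sample, no p-value is given and all differences describe these oocytes. GV replicate 9, grouped by its title although its treatment label reads in vitro maturation, reached 1 CPM for 9381 genes, and the other 6 GV oocytes for 11311 to 11798. Its histone values often stood apart and are given separately. All 14 oocyte markers were detected past the filter on low values, with a summed level of 23546 to 27243 CPM before maturation, 26697 to 46917 CPM after IVM and 39423 to 58443 CPM after CNP_IVM. BTG4, at means of 9807, 19952 and 32075 CPM, and OOSP2, at 1538, 3197 and 8400 CPM, carried that difference in the sum. Of the 14 markers 4 were at least 2-fold lower and 5 higher in IVM against GV (median log2 difference -0.23), where 33% and 15.9% of all genes were. In CNP_IVM against GV 7 were lower and 3 higher (-0.97), where 42% and 15.3% of all genes were. In CNP_IVM against IVM 6 were lower and 1 higher (-0.88), where 14.9% and 1.85% of all genes were. Summed over 21 cumulus and granulosa markers, levels were 698 to 1261 CPM before maturation, 446 to 781 CPM after IVM and 319 to 408 CPM after CNP_IVM. STAR, at means of 657, 316 and 93.9 CPM, made up most of that sum in GV and IVM oocytes, and the receptor gene FSHR was at 1.13 CPM or less in every oocyte. Summed over 9 blood and immune markers, levels were 221 to 387 CPM, 19.7 to 87.4 CPM and 13.4 to 38.6 CPM in the same order, and CD68 was at 0 in every CNP_IVM oocyte. The 8 proliferation markers summed to 1394 to 1791, 2615 to 4065 and 3689 to 4568 CPM. PCNA, at means of 772, 2050 and 3071 CPM, carried most of the differences in that sum. Of the 8 markers, 3 were at least 2-fold higher and 0 lower in IVM against GV (median log2 difference 0.51). The counts were 2 and 1 in CNP_IVM against GV (0.27), and 0 and 1 in CNP_IVM against IVM (-0.34). The shares of all genes are those given for the oocyte markers. The blood marker sum was highest in GV oocytes, as many histone transcripts were. The mean cumulus sum was highest there only with STAR included: leaving it out gave 233 CPM before maturation, 293 CPM after IVM and 260.1 CPM after CNP_IVM, and GV oocytes spread from 109 to 520.3 CPM. Single cumulus markers went both ways. HAS2, a cumulus expansion gene, had means of 16.3, 77.1 and 118 CPM. PTGS2 had means of 13.4, 38.0 and 37.6 CPM and FOXO1 of 13.7, 43.9 and 40.0 CPM. CD44 fell, with means of 23.9, 3.30 and 1.96 CPM, as did SERPINE2, with 68.7, 55.0 and 10.7 CPM. With low genes filtered out, 15 of the 21 remained. After IVM, 4 of these stood above GV by 2-fold or more and 4 stood below. After CNP_IVM, 3 stood above and 6 below. The part of these markers in the histone differences was not tested.

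Most replication-dependent histone transcripts were lower in metaphase II than in GV oocytes. H2BC18, a core histone H2B gene, was at 104 CPM in GV replicate 9 and at a lowest, median and highest value of 408, 582 and 819 CPM in the other 6 GV oocytes. After IVM it was at 40.2, 44.0 and 58.3 CPM, and after CNP_IVM at 74.7, 126 and 184 CPM. Every IVM oocyte lay below every GV oocyte, and CNP_IVM oocytes lay between them except that they overlapped GV replicate 9. The log2 difference of the group means, each with 1 CPM added, was -3.50 for IVM and -2.05 for CNP_IVM against GV. Both contrasts share the GV oocytes.

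H2AC6, of core histone H2A, was at 7.52 CPM in GV replicate 9 and at 61.4, 67.6 and 108 CPM in the other GV oocytes. It was at 1.07, 2.06 and 3.50 CPM after IVM and at 3.84, 5.68 and 10.6 CPM after CNP_IVM. IVM oocytes did not overlap GV oocytes, and CNP_IVM oocytes overlapped GV replicate 9 alone. Its log2 differences from GV were -4.46 and -3.13. H3C1, of core histone H3, was at 8.12 CPM in GV replicate 9, at 53.8, 66.1 and 94.1 CPM in the other GV oocytes, at 0.737, 1.90 and 3.60 CPM after IVM and at 2.38, 7.98 and 9.79 CPM after CNP_IVM. IVM oocytes lay below all GV oocytes and CNP_IVM oocytes overlapped GV replicate 9, and the log2 differences of H3C1 were -4.28 and -2.88. H3C2, another H3 gene of the same run of neighbours, was at 16.05, 31.4 and 41.1 CPM in all GV oocytes, at 1.58, 2.06 and 2.99 CPM after IVM and at 4.39, 5.60 and 9.17 CPM after CNP_IVM, and neither metaphase II group overlapped GV.

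**Figure D1:**
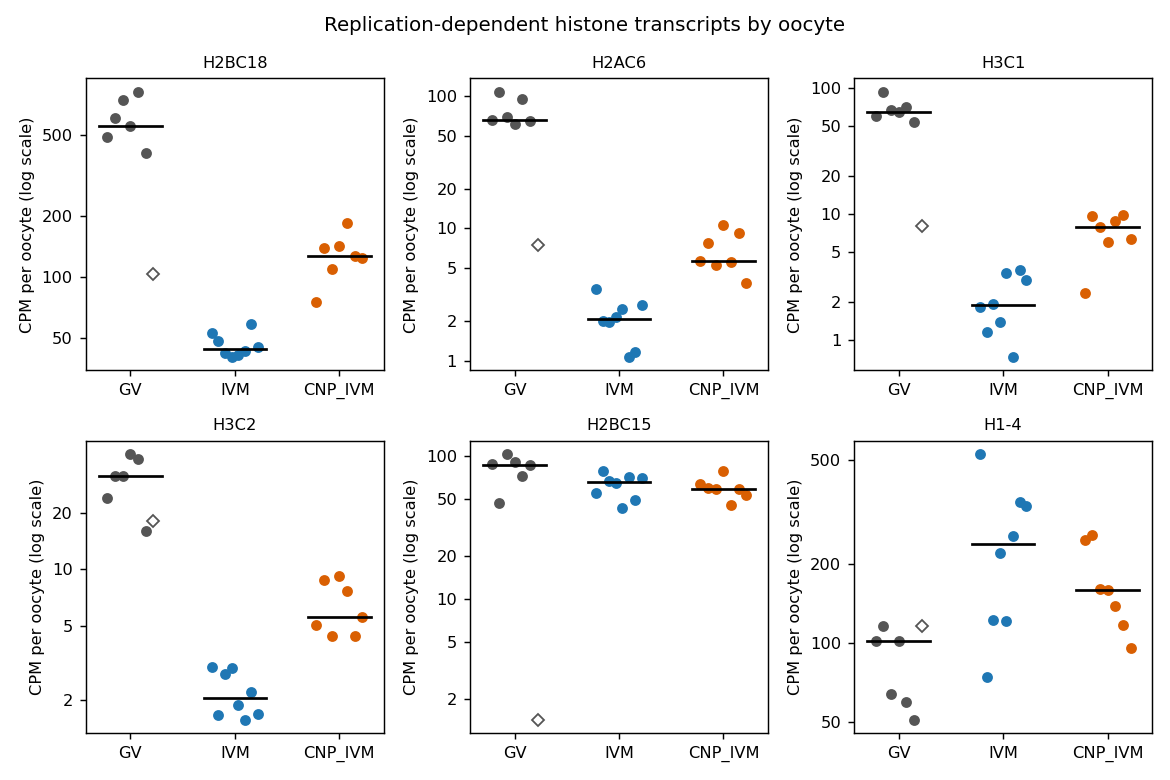
Each point is 1 oocyte, the vertical axes are CPM on a log scale, bars are medians and the open diamond is GV replicate 9. H2BC18, H2AC6, H3C1 and H3C2 were lowest after IVM and intermediate after CNP_IVM, while H2BC15 differed little between group medians and H1-4 was higher after IVM than in most GV oocytes.

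The H2AC16 set of 3 H2A rows was at 41.3 CPM in GV replicate 9 and at 6.56, 13.1 and 16.4 CPM in the other GV oocytes. It was at 0.297, 0.543 and 0.825 CPM after IVM and at 1.09, 1.64 and 2.22 CPM after CNP_IVM, below every GV oocyte in both. For the H3C13 pair the values were 6.62, 14.96 and 19.97 CPM before maturation, 0.220, 1.64 and 2.40 CPM after IVM and 2.49, 2.73 and 4.84 CPM after CNP_IVM. H2AC4 was at 7.46, 8.91 and 13.6 CPM in GV, 0.407, 1.82 and 2.47 CPM in IVM and 0.925, 3.44 and 5.94 CPM in CNP_IVM oocytes. Both metaphase II groups lay below all GV oocytes for this set, for the pair and for H2AC4. H2BC12 was at 0.681 CPM in GV replicate 9, 12.0 to 25.9 CPM in the other GV oocytes, 2.02 to 5.54 CPM after IVM and 2.67 to 14.7 CPM after CNP_IVM. H3-4, a histone H3 gene expressed in human testis, was at 0 in GV replicate 9, 2.91 to 21.3 CPM in the other GV oocytes, 0 to 0.788 CPM after IVM and 0 to 1.52 CPM after CNP_IVM. Reads of H3-4 summed over a group gave 11.3 CPM (10.8 to 11.7) before maturation, 0.223 CPM (0.170 to 0.288) after IVM and 0.442 CPM (0.365 to 0.530) after CNP_IVM, with exact 95% Poisson intervals that cover counting error only.

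A few replication-dependent genes departed from this. The linker histone gene H1-4 was higher after maturation, at 51.1, 102 and 117 CPM in GV, 74.1, 239 and 525 CPM in IVM and 96.1, 159 and 258 CPM in CNP_IVM oocytes. The groups overlapped, and the log2 differences from GV were 1.50 for IVM and 0.94 for CNP_IVM. The latter was 1.02 without GV replicate 9. H2BC15 was at 1.44 CPM in GV replicate 9, 47.1, 87.3 and 103 CPM in the other GV oocytes, 43.2, 66.1 and 78.9 CPM after IVM and 45.9, 58.9 and 78.3 CPM after CNP_IVM. H2AC21, a neighbour of H2BC18, was at 8.24, 15.6 and 25.5 CPM in GV, 4.21, 9.01 and 17.1 CPM in IVM and 8.49, 14.8 and 19.3 CPM in CNP_IVM oocytes. H2BC15 and H2AC21 were under 2-fold apart in every comparison. The small log2 differences of H2BC15 against GV (-0.16 and -0.22), and that of H2AC21 for CNP_IVM (-0.18), turned to 0.11, 0.31 and 0.36 when libraries were scaled by trimmed means (TMM) in place of their totals. The log2 difference of H2AC21 for IVM against GV was -0.78, against -3.50 for H2BC18 and -2.48 for the H3C13 pair of the same run of genes.

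Counts over the family were read against all genes. A gene was kept when 6 or more libraries reached 1 CPM, which left 27 of the 33 histone sets (18 replication-dependent and 9 variant) among 11779 sets of values. In IVM against GV, 14 of the 18 replication-dependent and 4 of the 9 variant sets were at least 2-fold lower, where 33% of all genes were. At least 2-fold higher were 1 replication-dependent set, H1-4, and 0 variant sets, where 15.9% of all genes were. The median log2 difference was -2.15 for replication-dependent and -0.54 for variant histones and -0.28 for all genes. In CNP_IVM against GV, 12 replication-dependent and 4 variant sets were at least 2-fold lower against 42% of all genes. Here 0 replication-dependent and 1 variant set, H3-3A, were at least 2-fold higher against 15.3% of all genes. The medians were -1.29, -0.84 and -0.61 for replication-dependent histones, variant histones and all genes. TMM factors shifted the medians of all genes to -0.04 and -0.13. Then 2 histone sets were 2-fold higher and 18 lower after IVM, where 2625 and 3342 of 11732 sets among all genes were. After CNP_IVM 3 were higher and 12 lower, where 2997 and 3911 of all genes were.

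A gene can pass this filter through its highest group alone: 6 of the 27 sets (H2BC3, H3C12, H2BU1, H3-4, H1-7 and H3-5) had fewer than 6 libraries at 1 CPM outside that group, which was GV for all of them but H3-5. Among the other 14 replication-dependent sets, 10 were at least 2-fold lower after IVM and 9 after CNP_IVM. Under the same condition 29.1% and 38.1% of all genes were. The following counts are again over all 18 replication-dependent and 9 variant sets past the filter. Every IVM oocyte lay below every GV oocyte for 9 and 3 sets, against 19.8% of all genes, and above for 0 and 2 sets, against 11.5%. Every CNP_IVM oocyte lay below every GV oocyte for 5 and 3 sets, against 28% of all genes, and above for 0 and 1 sets, against 12.8%. Without GV replicate 9 the lower counts were 12 and 4 for IVM (25.6% of all genes) and 9 and 5 for CNP_IVM (36.1% of all genes). H2BC3 was among the lower sets in both comparisons and H2BU1 in that of IVM, and H3-4 and H1-7 joined in both without GV replicate 9. These sets passed the filter through GV, which favours lower values in the other groups.

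Between the metaphase II groups, replication-dependent histones were mostly higher after CNP_IVM, against the direction of genes in general. With 1 CPM added to both means, the log2 difference was 1.45 for H2BC18, 1.33 for H2AC6, 1.40 for H3C1, 1.21 for H3C2 and 1.05 for H2BC12. On that scale these were the 5 of 18 replication-dependent sets at least 2-fold higher, where 1.85% of all genes were. The count depends on the added value, since several sets were near or under 1 CPM after IVM: with 0.1 CPM added it was 10 of 18, against 3.28% of all genes, and the further sets were H2BC3, H2BC4, H2BU1, the H3C13 pair and the H2AC16 set. With 1 CPM added, H3-3A was the variant set at least 2-fold higher, and MACROH2A1 was the set that was at least 2-fold lower, where 14.9% of all genes were. Every CNP_IVM oocyte lay above every IVM oocyte for H2BC18, H2AC6, H3C2, the H3C13 pair and the H2AC16 set, 5 of 18 sets against 1.33% of all genes. The H3C1 and H2BC12 values overlapped, and leaving out single oocytes gave H2BC12 log2 differences of 0.81 to 1.19. Conversely 0 sets lay wholly below, where 2.61% of all genes did. The mean was higher after CNP_IVM for 15 of the 18 sets, with H1-4, H2BC13 and H2BC15 as the exceptions, and for 3627 of 11779 sets among all genes. The median log2 difference was 0.70 for replication-dependent histones, -0.26 for variants and -0.28 for all genes. With TMM factors the first was 0.92, that of all genes -0.05 and the distance between them 0.97 in place of 0.98. The histone sets past 2-fold were then 7 higher and 0 lower, where 453 and 990 of 11732 sets among all genes were.

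**Figure D2:**
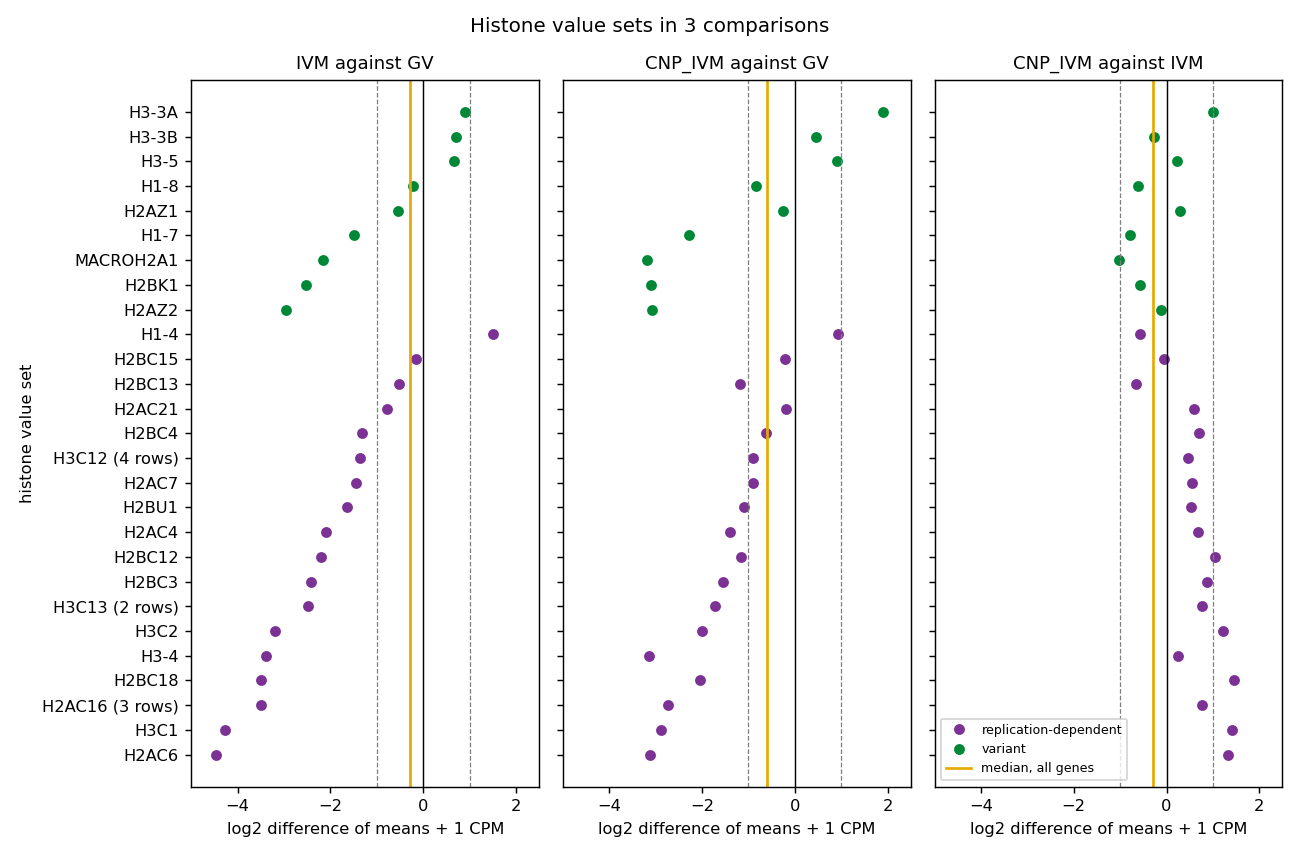
Each row is a histone value set past the filter (with the number of table rows it stands for), and each point its log2 difference of group means plus 1 CPM; dashed lines mark 2-fold and the yellow line the median of all genes. In the comparisons with GV most replication-dependent points lie left of the yellow line, with H1-4 at 1.50 and 0.94, and in CNP_IVM against IVM most lie right of it.

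The remaining replication-dependent sets were low. Past the filter, H2AC7, H2BC3, H2BC4, H2BC13, H2BU1 and the H3C12 set had group means of 2.37 to 7.32 CPM in GV, 0.0850 to 2.48 CPM after IVM and 0.571 to 3.48 CPM after CNP_IVM. Below the filter were the H4C2 set, the H2BC7 set, H2BC5 and H4C9. The reads shared by the 12 H4 rows of the H4C2 set were counted once and summed over a group. They gave 1.57 CPM (1.41 to 1.74) before maturation, 0.291 CPM (0.230 to 0.364) after IVM and 0.156 CPM (0.112 to 0.212) after CNP_IVM, with exact 95% Poisson intervals. After CNP_IVM all reads of that set came from replicate 5, at 1.18 CPM. For the 7 H2B rows of the H2BC7 set, also counted once, the sums gave 0.694 CPM (0.589 to 0.813), 0.110 CPM (0.0735 to 0.158) and 0.0495 CPM (0.0263 to 0.0846). So both H4 value sets, of which H4C9 is a pseudogene in RefSeq, were low in these libraries at every stage. H4 protein is part of every nucleosome. Priming at poly(A) and reads shared among near-identical copies limit what these values say of H4 messengers.

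Among linker histones, H1-8 (H1FOO), the oocyte form that in mouse replaces somatic H1 in the growing oocyte and is carried into the early embryo, was abundant in all groups. It was at 1323 CPM in GV replicate 9, 1846, 2370.1 and 2705 CPM in the other GV oocytes, 728, 1931 and 2679 CPM after IVM and 743, 1208 and 1762 CPM after CNP_IVM. All groups overlapped, and without GV replicate 9 every CNP_IVM oocyte lay below every GV oocyte. The log2 difference was -0.23 for IVM against GV, which turned to 0.01 with TMM factors, -0.84 for CNP_IVM against GV and -0.61 for CNP_IVM against IVM. With TMM factors the second was -0.31. Within oocytes, the number of H1-8 reads per H1-4 read had a median of 23.5 (11.4 to 52.9) in GV, 7.43 (3.39 to 30.9) in IVM and 6.84 (5.00 to 14.95) in CNP_IVM oocytes. This ratio also depends on transcript length, and its ranges overlapped. H1-7, a linker histone gene known from mouse spermatids, was at 0.0272 CPM in GV replicate 9, 2.89 to 7.98 CPM in the other GV oocytes, 0.248 to 2.39 CPM after IVM and 0 to 0.257 CPM after CNP_IVM. H1-10 stayed below the filter, with 9.48 CPM in GV replicate 9 and at most 1.06, 1.54 and 0.512 CPM in the other GV, the IVM and the CNP_IVM oocytes. H1-12, whose RefSeq synonym is HIST1H1E and which lies in the large run of neighbours, was placed among the variants by its symbol and was at 0.137 CPM or less in every oocyte.

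H3-3A and H3-3B encode the same protein, the variant H3.3, which is deposited outside S phase, and from IVM to CNP_IVM the mean of H3-3A was higher while that of H3-3B was lower. H3-3A was at 476 CPM in GV replicate 9, 631, 698 and 765 CPM in the other GV oocytes, 792, 1238 and 1713 CPM after IVM and 2207, 2546 and 2904 CPM after CNP_IVM. All 3 groups were separate and stood in that order, with log2 differences of 0.90 for IVM against GV, 1.90 for CNP_IVM against GV and 1.01 for CNP_IVM against IVM. H3-3B was at 487 CPM in GV replicate 9, 890, 1076 and 1169 CPM in the other GV oocytes, 1296, 1591 and 1931 CPM after IVM and 1123, 1342 and 1443 CPM after CNP_IVM. Its log2 differences were 0.71, 0.45 and -0.26 in the same order, the last of which was -0.01 with TMM factors. IVM oocytes lay above all GV oocytes, and CNP_IVM oocytes overlapped both other groups. The number of H3-3A reads per H3-3B read, in which scaling cancels, was 0.592, 0.696 and 0.978 in GV, 0.519, 0.763 and 1.00 in IVM and 1.54, 1.90 and 2.27 after CNP_IVM, which placed all CNP_IVM oocytes above all the others. H3-5 (RefSeq synonym H3F3C) was at 5.08 CPM or less in every oocyte.

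**Figure D3:**
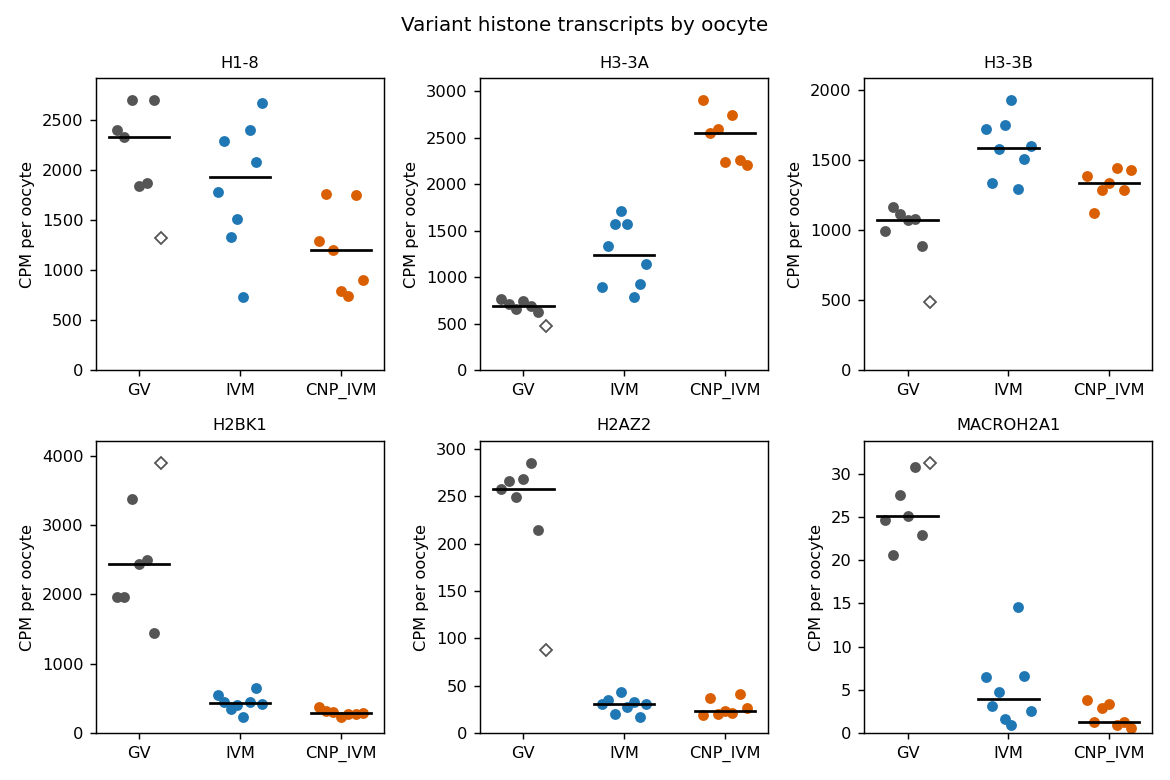
Each point is 1 oocyte, the vertical axes are CPM from 0, bars are medians and the open diamond is GV replicate 9. H3-3A was at 2207 to 2904 CPM after CNP_IVM, above every IVM oocyte, while H2BK1, H2AZ2 and MACROH2A1 were low in both metaphase II groups.

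The H2A and H2B variants differed among themselves. H2BK1 was at 3898 CPM in GV replicate 9, 1446, 2196 and 3376 CPM in the other GV oocytes, 230, 430.0 and 644 CPM after IVM and 225, 287 and 376 CPM after CNP_IVM. Both metaphase II groups lay below all GV oocytes, with log2 differences of -2.53 and -3.10. H2AZ2, a gene of the promoter-associated variant H2A.Z, was at 87.7 CPM in GV replicate 9, 214, 262 and 286 CPM in the other GV oocytes, 16.5, 30.4 and 43.0 CPM after IVM and 18.97, 23.0 and 41.0 CPM after CNP_IVM, again without overlap. Its log2 differences from GV were -2.95 and -3.07. That between the metaphase II groups, -0.12, turned to 0.12 with TMM factors.

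H2AZ1, the other H2A.Z gene, was low. It was at 48.7 CPM in GV replicate 9, 1.31, 3.89 and 4.22 CPM in the other GV oocytes, 2.18, 3.94 and 23.1 CPM after IVM and 4.31, 7.39 and 10.2 CPM after CNP_IVM. Its log2 difference from GV had no stable direction. For IVM it was -0.54 with and 0.82 without GV replicate 9. For CNP_IVM it was -0.26 with and 1.10 without that oocyte, and with all oocytes kept it turned to 0.37 with TMM factors and to 0.74 with medians in place of means. MACROH2A1, the H2A variant with an added macro domain, was at 20.6, 25.1 and 31.3 CPM in GV, 0.942, 3.93 and 14.5 CPM in IVM and 0.560, 1.23 and 3.80 CPM in CNP_IVM oocytes. Both metaphase II groups lay below all GV oocytes, with log2 differences of -2.16 and -3.18, and they overlapped each other (-1.02), a difference under 2-fold with TMM factors. H2AX, H2AJ and MACROH2A2 were not analysed here.

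Summed per oocyte with each set once, replication-dependent histones were at 365 CPM in GV replicate 9, 760.1, 1084 and 1294 CPM in the other GV oocytes, 227, 375 and 671 CPM in IVM and 333, 431 and 529 CPM in CNP_IVM oocytes. H2BC18, H1-4 and H2BC15 carried most of these sums. Without these 3 genes the sum was 143 CPM in GV replicate 9, 214, 279 and 363 CPM in the other GV oocytes, 21.9, 27.3 and 41.0 CPM after IVM and 49.3, 61.7 and 71.7 CPM after CNP_IVM. These 3 genes were left out with their values known, and H1-4 and H2BC15 among them departed from the other members, so the separation of the groups in that sum follows in part from the choice. By family, the median sums in GV, IVM and CNP_IVM oocytes were 115, 13.6 and 30.8 CPM for H2A, 691, 116 and 205 CPM for H2B and 119, 6.52 and 18.3 CPM for H3. H3-3A and H3-3B together made up 91.9 to 96.1% of all H3 reads in GV, 99.5 to 99.8% in IVM and 99.2 to 99.6% in CNP_IVM oocytes. This share also depends on transcript length and on priming at poly(A), which misses messengers without a tail. Variant histones summed to 5919, 6410 and 8146 CPM in GV, 4491, 5092 and 5879 CPM in IVM and 4640, 5424 and 5992 CPM in CNP_IVM oocytes. The order of the variant sums depended on scaling: with TMM factors the means were 5459 CPM in GV and 6506 CPM in CNP_IVM oocytes, against 6596 and 5368 CPM as scaled by library totals.

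**Figure D4:**
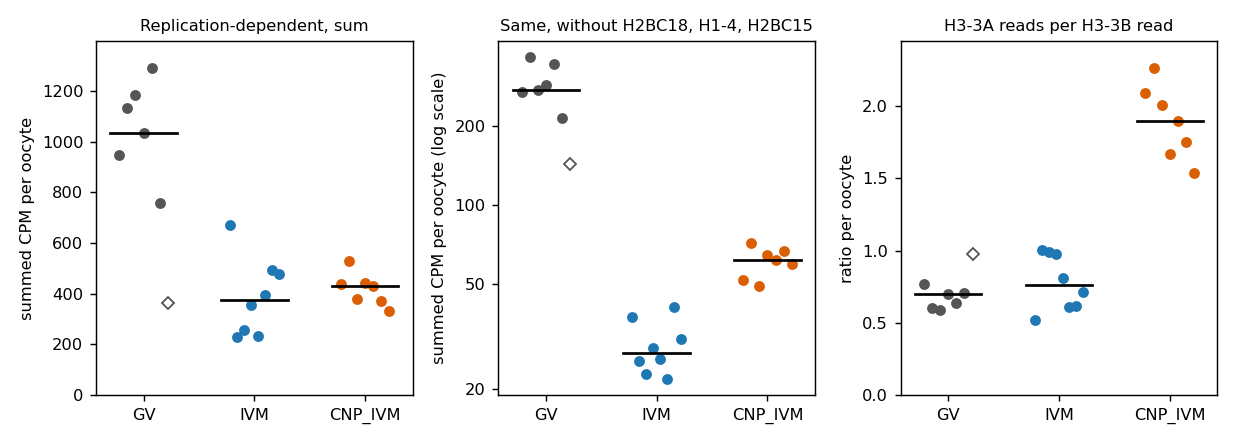
Each point is 1 oocyte, bars are medians and the open diamond is GV replicate 9; the vertical axes are the summed CPM of replication-dependent histones, the same sum without 3 genes on a log scale, and the ratio of H3-3A to H3-3B reads. Without H2BC18, H1-4 and H2BC15 the CNP_IVM sums of 49.3 to 71.7 CPM lie between the IVM and GV sums, and the CNP_IVM ratios of 1.54 to 2.27 lie above all others.

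The factors that make and carry histones were also looked at. Of 18 genes of histone messenger processing, IVM against GV placed 6 past 2-fold upward and 2 downward, where 15.9% and 33% of all genes were. CNP_IVM against GV placed 2 upward and 6 downward (15.3% and 42% of all genes), and CNP_IVM against IVM 0 and 6 (1.85% and 14.9%). The median log2 differences were 0.25, -0.27 and -0.69. CASP8AP2, a factor of histone gene transcription, was at 2.04 to 105 CPM before maturation, 236 to 452 CPM after IVM and 216 to 417 CPM after CNP_IVM. LSM10, of the particle that cuts histone messengers, was at 92.3 to 143 CPM, 6.08 to 13.7 CPM and 1.26 to 8.69 CPM. SLBP was at 175 to 426 CPM before maturation, 486 to 1135 CPM after IVM and 209 to 519 CPM after CNP_IVM, a log2 difference of -1.08 between the metaphase II groups, and so stood lower after CNP_IVM where most replication-dependent messengers stood higher. SLBP lies outside the naming rule for that comparison and was picked for its role after its values had been seen.

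Of 38 genes of histone chaperones and deposition, 15 passed 2-fold upward and 6 downward in IVM against GV, where 15.9% and 33% of all genes did. These counts were 12 and 6 in CNP_IVM against GV (15.3% and 42% of all genes), and 0 and 5 in CNP_IVM against IVM (1.85% and 14.9%). The median log2 differences were 0.70, 0.20 and -0.19. NASP, a chaperone of H3 and H4 (and of H1), was at 87.1 to 232 CPM before maturation, 594 to 834 CPM after IVM and 695 to 884 CPM after CNP_IVM. ATRX, which with DAXX deposits H3.3, was at 40.5 to 132 CPM, 305 to 498 CPM and 381 to 658 CPM. ASF1A, another H3 and H4 chaperone, was at 284 to 432 CPM, 55.9 to 165 CPM and 59.8 to 79.7 CPM. For these 3 genes both metaphase II groups were separate from GV and overlapped each other.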

How the data were processed

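The authors deposited 1 table of values per gene and oocyte, whose name says TPM. What the authors deposited is CPM: within a library each is a whole multiple of 1 step for all genes, and with a tolerance of 0.01 read 100% of values gave whole reads. Tools listed in the submitters' processing notes, without order or role, are featureCounts 2.0.1, HISAT2 2.2.1, edgeR, FastQC and Trim Galore 0.6.7. They also list a mouse build, while the names are cattle symbols; coordinates are not printed. Of 29 labelled oocytes, 22 had a column, matched through the descriptions, and 7 were not analysed here; 0 columns were left over. Groups came from titles.

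With each group counted as 1 sample, no count test was run on the recovered reads. Log2 differences use group means plus 1 CPM, which understates differences of low genes, and 2-fold as the threshold. Identical rows were counted once. Members and lists were chosen with earlier results of these data known. Named genes were the 11 fixed variant and linker genes, the 6 highest and 6 lowest replication-dependent log2 differences per comparison at 10 CPM or more in either group, the highest of each family, and from the pathway lists up to 3 per direction; examples among those, and H2BK1, H1-7, H3-5 and low sets, were picked after their values were seen. Alternatives were TMM factors (edgeR 4.0.16), a pseudocount of 0.1 CPM, no filter, medians over oocytes, leaving out each oocyte and, added after seeing the data, counting every row. Python 3.11.15, pandas 2.3.3 and R 4.3.3 were used, and the 2-fold count was tested on simulated data.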

Additional observations from a re-analysis of the deposited data

Results flagged for a closer look

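Of 72 groups of values looked at, 12 held an oocyte whose gap to the nearest other oocyte exceeded Dixon's 95% limit for its group size. That limit assumes normally distributed values, and the groups share oocytes and genes. No rate by chance is therefore given for this count, which serves to flag values only. In 5 of the 12 it was GV replicate 9. That oocyte was above the other GV oocytes for H1-10 (9.48 CPM against 0.409 to 1.06 CPM), H2AZ1 (48.7 CPM against 1.31 to 4.22 CPM) and the H2AC16 set (41.3 CPM against 6.56 to 16.4 CPM). It was below them for H2AZ2 (87.7 CPM against 214 to 286 CPM) and H3-3B (487 CPM against 890 to 1169 CPM).

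The other 7 were spread over 7 oocytes. Among IVM oocytes, H1-10 was at 1.54 CPM in replicate 9, H2AZ1 at 23.1 CPM in replicate 3, MACROH2A1 at 14.5 CPM in replicate 8 and H2BC12 at 5.54 CPM in replicate 6. Among CNP_IVM oocytes, H1-10 was at 0.512 CPM in replicate 3 and the H4C2 set at 1.18 CPM in replicate 5, with the set at 0 in the other 6. The summed variant histones were at 8146 CPM in GV replicate 3, against 5919 to 6473 CPM in the other GV oocytes.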

How the results depend on the processing

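Of 304 recomputed values of the counts, medians and sums, 32 moved beyond their limits. The limit was a fixed ratio for counts and the SD between oocytes for medians and sums. A reversal was called only where a log2 difference of at least 2-fold changed sign, which gave 0. Counts, sums and smaller medians could not be called reversed, and the order of the variant sums did change with TMM factors. With TMM factors the histone sets at least 2-fold higher numbered 2 in IVM against GV and 3 in CNP_IVM against GV, where 2625 and 2997 of 11732 sets among all genes were. In CNP_IVM against IVM 0 histone sets were 2-fold lower, where 990 of all genes were. The replication-dependent medians became -0.89 (CNP_IVM against GV) and 0.92 (CNP_IVM against IVM), and the variant median -0.31 (CNP_IVM against GV). The sums became 506 CPM for replication-dependent histones after CNP_IVM, and 5459 and 6506 CPM for variants in GV and after CNP_IVM. The share of higher among all genes past 2-fold moved from 32.5, 26.7 and 11.1% to 44.0, 43.4 and 31.4% for IVM against GV, CNP_IVM against GV and CNP_IVM against IVM.

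With 0.1 CPM added in place of 1 CPM, 2 sets were 2-fold higher in either comparison with GV, 11 higher and 2 lower in CNP_IVM against IVM, and the replication-dependent medians were -2.81, -1.77 and 1.09. With no filter the first was -1.54. With medians over oocytes 2 sets were 2-fold lower in CNP_IVM against IVM. Leaving out single oocytes gave variant medians of -1.11 (without IVM replicate 3) to -0.32 (without GV replicate 9) in IVM against GV, 1 to 3 sets higher in CNP_IVM against GV (3 without GV replicate 9), and 0 to 1 lower in CNP_IVM against IVM. Counting every row gave 24 and 19 lower in IVM and CNP_IVM against GV. Those counts are of 33 rows past the filter in place of 27 sets, so identical rows are counted again. Of the counts in this paragraph, the 11 higher stand against 3.28% of all genes. For the other counts the share of all genes was not computed. The cause of these changes was not tested. No paired analysis was possible because no comparison was given a test and the labels do not tie oocytes across groups.

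Differences near the level of 3 reads, as in some metaphase II oocytes for the H4 rows, are limited by depth. PCR reads without molecular identifiers are not independent.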
